A study of Mus musculus with 24 samples.

Results

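The genes described here encode the subunits of phosphoinositide 3-kinase (PI3K) and its effector kinase Akt. They were taken from the series by gene symbol, and 8 of the 9 genes listed had a named probe among the 757 probes measured (Pik3r1, Pik3r2, Pik3r5, Pik3ca, Pik3cb, Pik3cg, Akt1 and Akt2). Pik3cd is not analysed here. The genes were chosen by symbol with measured values of this series already known, and which of those values led to each gene is not recorded. All fold changes and adjusted p-values below are therefore given as a description of the samples. They come from fits over all 757 probes.

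RNA came from the brains of 24 male C57BL/6J mice aged 27 weeks, 1 sample per mouse, in 7 groups. The tumor-bearing groups were CT2A + RT-TMZ + UCI-191 EV (3 mice), CT2A + RT-TMZ + Shef6 EV (3 mice) and their vehicle group CT2A + RT-TMZ + Veh (4 mice). The tumor-free groups were RT-TMZ + UCI-191 EV (3 mice), the Shef6 counterpart RT-TMZ + Shef6 EV (3 mice), RT-TMZ + Veh (4 mice) and Control + Veh (4 mice). CT2A denotes murine glioma cells of a single line implanted in the brain, so the tumor-bearing groups model 1 tumor. RT-TMZ denotes cranial irradiation (3 fractions of 9 Gy per the labels) with temozolomide at 25 mg/kg and later 66.7 mg/kg. Every group except Control + Veh received it, so the tumor is seen here only on top of it. EVs were extracellular vesicles from the human neural stem cell lines Shef6 or UCI-191, each of them a single line, given weekly into the blood, and vehicle (Veh) mice received saline. By label the tissue is brain, without a region. The study's methods had hippocampus and prefrontal cortex excised for molecular work, and the study presents these expression data as hippocampal.

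PI3K converts a membrane lipid into a second messenger that draws Akt to the plasma membrane, where Akt is phosphorylated and in turn acts on growth, survival and metabolism. Class IA enzymes pair a catalytic subunit (p110α from Pik3ca, p110β from Pik3cb) with a regulatory subunit (p85α from Pik3r1, p85β from Pik3r2) and are recruited by receptor tyrosine kinases. The class IB enzyme pairs p110γ (Pik3cg) with a regulatory subunit such as p101 (Pik3r5), is activated by G protein-coupled receptors and is best known from leukocytes, in brain from microglia.

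Levels are log2 normalized counts. They were counted on a barcoded probe panel without amplification. A level is used here to compare samples for 1 gene and not different genes with each other. Undoing each sample's scaling gave totals of 861888 to 936178 counts per sample in CT2A + RT-TMZ + Veh and of 1008920 to 1477860 in the other 6 groups, and the factor averaged 1.37 in that group against 0.888 to 1.07 in the others. Centring each sample on its median turned the median log2 fold change of all genes in CT2A + RT-TMZ + Veh against RT-TMZ + Veh to 0.128, against −0.140 as deposited, and the members are to be read against that shift. The labelled tissue held its neuron markers, with 12 of 15 listed genes measured and a summed level of 91230.8 to 125723 normalized counts. In bulk tissue, fewer cells of a type and less RNA per cell cannot be told apart. RT-TMZ + Shef6 EV was split in Mef2c, a transcription factor of forebrain neurons, with log2 values of 14.38 and 14.10 in replicates 1 and 2 and of 11.91 in replicate 3. Replicate 3 lay within the range of RT-TMZ + Veh (11.90 to 12.79), and replicates 1 and 2 above all tumor-free samples of the other groups. Replicate 1 was also low in transthyretin (Ttr), the defining transcript of choroid plexus (log2 6.99, against 14.13 and 14.79 in replicates 2 and 3). Results that rest on 1 of these samples are given with and without it.

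Over the 7 groups, 4 of the 8 genes differed (moderated F test of limma, adjusted p under 0.05), beside 48.0% of all 757 genes. They were Pik3r1 (adjusted p = 0.000974), Pik3ca (0.00185), Pik3cb (0.00187) and Pik3cg (0.00568), and the 4 passed whichever of the 24 samples was left out. Akt2 (0.0655), Akt1 (0.110), Pik3r2 (0.174) and Pik3r5 (0.316) did not pass. Akt2 passed without replicate 2 of CT2A + RT-TMZ + Veh (0.0342), replicate 1 of CT2A + RT-TMZ + Shef6 EV (0.0432) or replicate 1 of CT2A + RT-TMZ + UCI-191 EV (0.0452). Median centring ended the call for Pik3ca (adjusted p = 0.0629) and Pik3cb (0.154), and quantile normalization ended it for Pik3cb (0.0512) and Pik3cg (0.265), while Pik3r1 passed under all 8 other settings (up to 0.0156). The group means of Pik3r1 spanned 0.93 on the log2 scale with an SD of 0.20 within groups. Those of Pik3cg spanned 0.59 (within-group SD 0.17), those of Pik3ca 0.48 (0.11) and those of Pik3cb 0.26 (0.05).

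**Figure D1:**
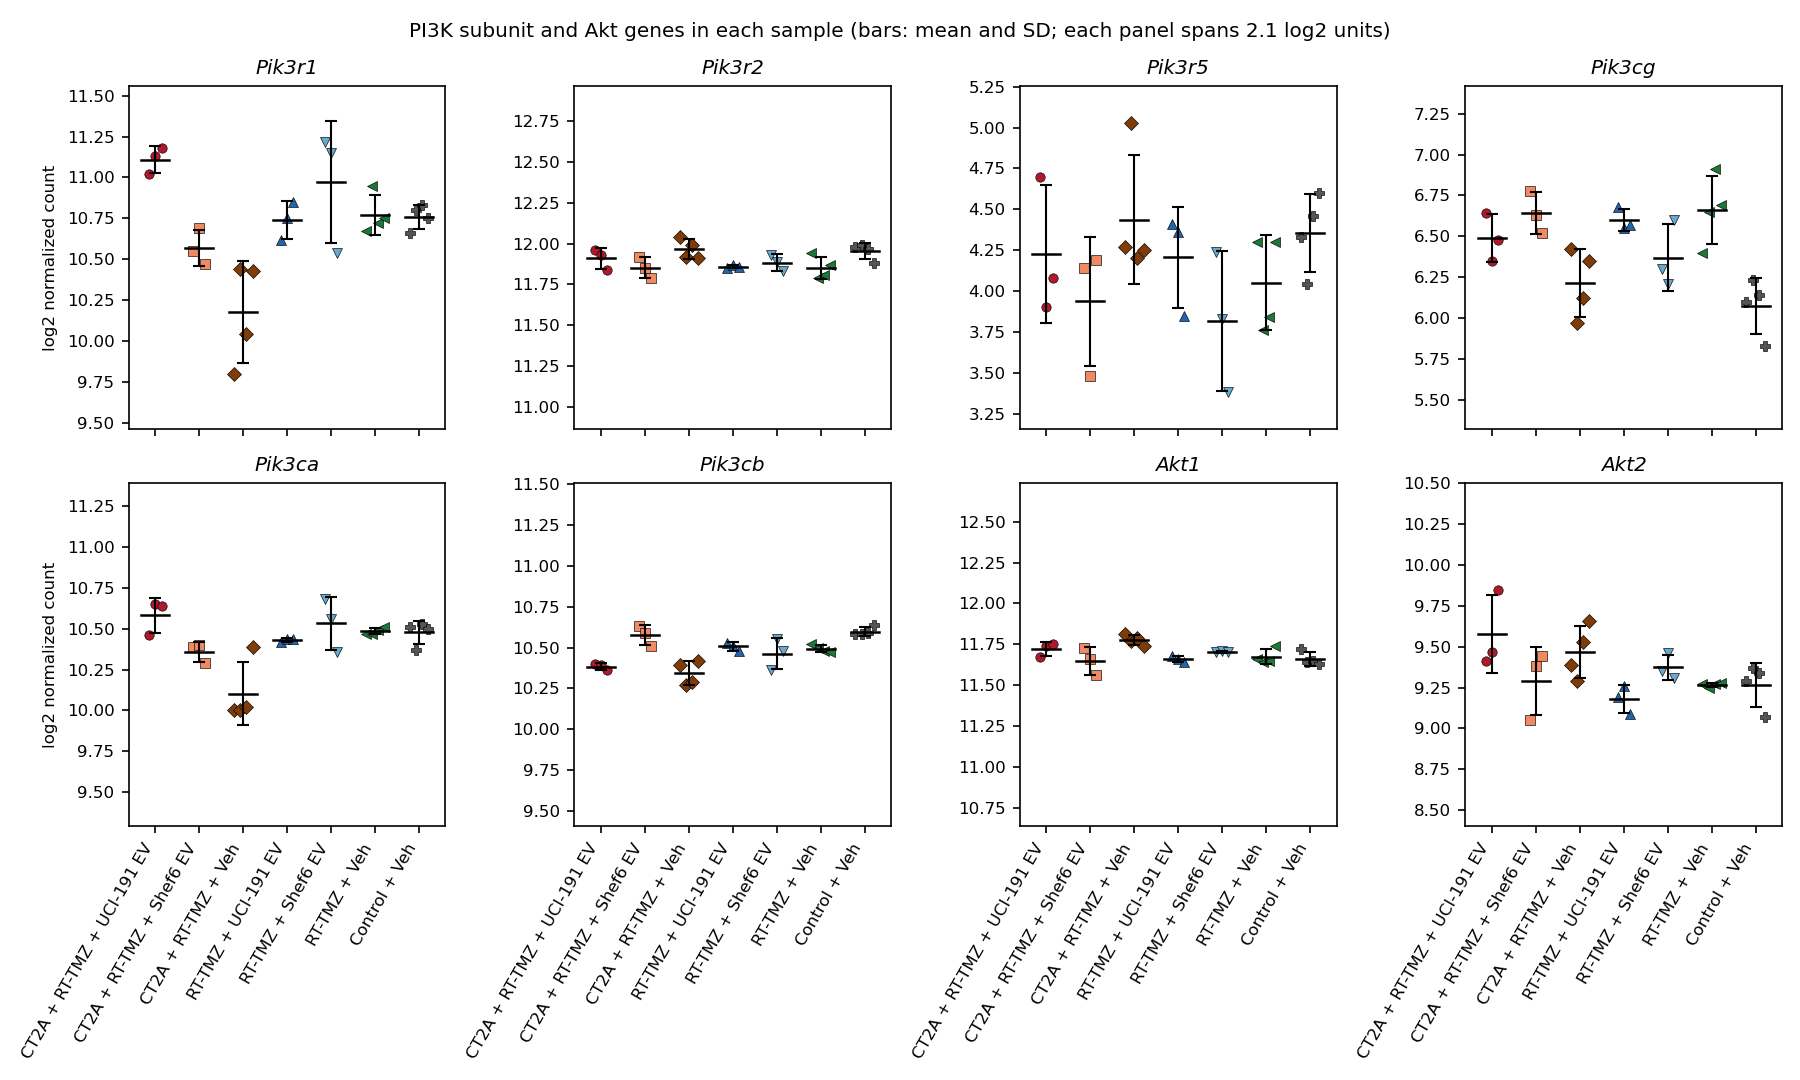
Log2 normalized counts (vertical axis) of the 8 genes in each of the 24 samples, by group on the horizontal axis, with points for samples and bars for the group mean and SD. Pik3r1 lies between 11.02 and 11.18 in CT2A + RT-TMZ + UCI-191 EV and between 9.80 and 10.44 in CT2A + RT-TMZ + Veh, whereas Akt1 stays between 11.56 and 11.81 in all samples.

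Pik3r1, which encodes p85α, the subunit that both stabilizes and restrains p110, was lower in the tumor-bearing vehicle mice. It had log2 values of 9.80, 10.44, 10.04 and 10.43 in CT2A + RT-TMZ + Veh, against 10.67, 10.95, 10.72 and 10.75 in RT-TMZ + Veh. Every CT2A + RT-TMZ + Veh sample lay below every RT-TMZ + Veh sample. The means were 1178 ± 247 normalized counts in CT2A + RT-TMZ + Veh and 1754 ± 154 in RT-TMZ + Veh (SD, n = 4 each), a log2 fold change of −0.60 (standard error, SE, of 0.15, with adjusted p = 0.0432 by limma). Pik3ca, encoding p110α, was lower in the same comparison. It had 1024, 1024, 1038 and 1342 normalized counts in CT2A + RT-TMZ + Veh, against 1418, 1418, 1438 and 1458 in RT-TMZ + Veh, a log2 fold change of −0.38 (SE 0.10, adjusted p = 0.0451). These were the 2 of 8 members that passed, both lower, beside 10.6% of all genes called in either direction and 8.72% called lower. In 4 of 8 members the groups did not overlap, namely these genes, Pik3cb and Akt2, beside 21.1% of all genes. Both calls were lost without any 1 of the RT-TMZ + Veh samples and without replicate 1 or 3 of CT2A + RT-TMZ + Veh, with adjusted p-values of 0.0660 to 0.125 for Pik3r1 (log2 fold changes of −0.63 to −0.47) and of 0.0743 to 0.131 for Pik3ca (−0.39 to −0.35). Over 10 other settings 5 passed for each gene, and with median centring the log2 fold changes were −0.33 (adjusted p = 0.237) and −0.12 (0.488), with quantile normalization −0.36 (0.0940) and −0.13 (0.227).

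Against Control + Veh the same group was lower in Pik3r1, Pik3ca and Pik3cb, which encodes p110β. Pik3r1 had 10.66, 10.80, 10.83 and 10.75 in Control + Veh, all above the CT2A + RT-TMZ + Veh values given above, and the log2 fold change was −0.58 (SE 0.14, adjusted p = 0.0248). For Pik3ca the log2 fold change was −0.38 (SE 0.10, adjusted p = 0.0327), with replicate 4 of CT2A + RT-TMZ + Veh inside the control range. Pik3cb had 10.39, 10.27, 10.29 and 10.42 in CT2A + RT-TMZ + Veh, against 10.58, 10.58, 10.59 and 10.64 in Control + Veh, a log2 fold change of −0.26 (SE 0.06, adjusted p = 0.0248). The decline in Pik3cb was thus small beside that of Pik3r1, and its groups did not overlap. The 3 of 8 members that passed, all lower, stand beside 21.1% of all genes in either direction and 13.3% called lower. In 3 of 8 members the groups did not overlap (Pik3r1, Pik3cb and Akt1), beside 28.5% of all genes. All 3 calls were lost without any 1 Control + Veh sample or without replicate 3 of CT2A + RT-TMZ + Veh (adjusted p of 0.0600 to 0.0954), and that of Pik3ca also without replicate 1 (0.0832). With median centring the log2 fold changes were −0.37 for Pik3r1 (adjusted p = 0.142), −0.16 for Pik3ca (0.287) and −0.04 for Pik3cb (0.80). In CT2A + RT-TMZ + Veh against RT-TMZ + Veh, Pik3cb changed sign with the scaling, at −0.15 as deposited (adjusted p = 0.157) and 0.12 with median centring (0.508).

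Markers of several cell types moved with these genes, endothelial ones among them. The summed level of 7 of 10 listed endothelial genes was 1823 to 2235 normalized counts in CT2A + RT-TMZ + Veh, against 3067 to 4252 in RT-TMZ + Veh and 2918 to 3256 in Control + Veh. Of the 7, 5 were lower past the threshold in CT2A + RT-TMZ + Veh against RT-TMZ + Veh and 5 against Control + Veh, and no measured marker lay under 20 normalized counts throughout. Of 4 of 7 listed astrocyte genes measured, 2 were lower past the threshold in each of these comparisons, with list medians of −0.276 against RT-TMZ + Veh and −0.256 against Control + Veh. The 5 of 11 oligodendrocyte genes measured had medians of −0.575 and −0.507, and none of them passed. Ttr was at 7.49, 5.31, 7.23 and 13.94 in CT2A + RT-TMZ + Veh, and replicate 4, its only high sample there, was also the highest of the group in Pik3ca. The part of these cell types in the lower Pik3r1, Pik3ca and Pik3cb was not tested.

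In tumor-bearing mice, UCI-191 EV was accompanied by a higher Pik3r1 level. The log2 values were 11.02, 11.13 and 11.18 in CT2A + RT-TMZ + UCI-191 EV, against 9.80, 10.44, 10.04 and 10.43 in CT2A + RT-TMZ + Veh. The means were 2213 ± 124 (n = 3) and 1178 ± 247 normalized counts (n = 4), a log2 fold change of 0.93 (SE 0.17, adjusted p = 0.0483). It was 1 of 8 members that passed, beside 1.45% of all genes, all of them higher. The groups did not overlap in 2 of 8 members, Pik3r1 and Pik3ca, beside 24.6% of all genes. Pik3ca had 1409, 1607 and 1596 normalized counts in CT2A + RT-TMZ + UCI-191 EV, against 1024, 1024, 1038 and 1342 in CT2A + RT-TMZ + Veh, a log2 fold change of 0.48 (SE 0.12, adjusted p = 0.0736), which reached an adjusted p of 0.0123 (log2 fold change 0.58) without replicate 4 of the vehicle group. The Pik3r1 call was lost without replicate 1 or 3 of CT2A + RT-TMZ + Veh (adjusted p = 0.0698 and 0.151) and without any 1 of the UCI-191 EV samples (0.109 to 0.192), with log2 fold changes of 0.81 to 0.98. It was also lost in 4 of 10 other settings, up to an adjusted p of 0.142 with the methods' t-test (run gene by gene, with unequal variances).

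With Shef6 EV the tumor-bearing mice had Pik3r1 values of 10.55, 10.69 and 10.47, above the 4 vehicle values as well. The log2 fold change in CT2A + RT-TMZ + Shef6 EV against CT2A + RT-TMZ + Veh was 0.39 (SE 0.17, adjusted p = 0.170), and 0 of 8 members passed in limma (2 before adjustment at p under 0.05, 0 by the methods' t-test), beside 5.02% of all genes. The groups did not overlap in 5 of 8 members (Pik3r1, Pik3cb, Pik3cg, Pik3r5 and Akt1), beside 31.7% of all genes. Pik3ca passed without replicate 4 of CT2A + RT-TMZ + Veh (log2 fold change 0.35, adjusted p = 0.0239), whereas with all samples it was 0.26 (0.192). Endothelial markers were again higher beside the vehicle group, at 3535 to 4347 summed normalized counts with Shef6 EV and 3435 to 3908 with UCI-191 EV. Past the threshold, 6 of 7 were higher with Shef6 EV and 4 of 7 with UCI-191 EV, and their part in the member values was not tested. Nor was that of oligodendrocyte genes, with medians of 0.593 with Shef6 EV and 0.573 with UCI-191 EV and none past the threshold, or of Ttr, at 9.73, 14.31 and 14.86 with Shef6 EV and 13.09, 14.05 and 11.87 with UCI-191 EV. Both comparisons share the CT2A + RT-TMZ + Veh samples.

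Set directly against each other in tumor-bearing mice, the EV groups differed in Pik3r1. All 3 UCI-191 EV samples (11.02, 11.13 and 11.18) lay above all 3 Shef6 EV samples (10.55, 10.69 and 10.47), and the log2 fold change was 0.54 (SE 0.07, adjusted p = 0.0113). It was the 1 of 8 members that passed in CT2A + RT-TMZ + UCI-191 EV against CT2A + RT-TMZ + Shef6 EV, beside 6.61% of all genes and 4.10% called higher. Pik3ca, at 10.46, 10.65 and 10.64 with UCI-191 EV against 10.39, 10.40 and 10.29 with Shef6 EV, had a log2 fold change of 0.22 (adjusted p = 0.110). Pik3cb stood the other way, at 10.40, 10.39 and 10.36 against 10.63, 10.59 and 10.51, a log2 fold change of −0.19 (adjusted p = 0.0747). In these 3 of 8 members the groups did not overlap, beside 34.5% of all genes. The Pik3r1 call was lost without UCI-191 EV replicate 2 (adjusted p = 0.0510) or Shef6 EV replicate 3 (0.0501). It was also lost in the fit of all 7 groups (0.0537), with the methods' t-test (0.161) and with the replicate number as a block. Mef2c was higher in these UCI-191 EV samples as well (13.71 to 14.00, against 12.04 to 12.09 with Shef6 EV), and its part was not tested.

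Without the tumor, Pik3r1 did not pass with UCI-191 EV. RT-TMZ + UCI-191 EV had 10.62, 10.75 and 10.85, overlapping RT-TMZ + Veh (10.67 to 10.95), a log2 fold change of −0.03 (SE 0.08, adjusted p = 0.938). The difference of the UCI-191 EV effect with and without CT2A was 0.96 (SE 0.20, adjusted p = 0.0376), 1 of 8 members past the threshold beside 1.85% of all genes and 1.59% called higher. For Pik3ca this difference was 0.53 (SE 0.13, adjusted p = 0.0528), and it passed without replicate 2 or 4 of CT2A + RT-TMZ + Veh (0.0326 and 0.000445) or without replicate 1 of CT2A + RT-TMZ + UCI-191 EV (0.0377). The Pik3r1 call was lost without any 1 of 9 of the 14 samples, up to an adjusted p of 0.117 (values of 0.91 to 1.02), namely every RT-TMZ + UCI-191 EV sample, replicates 2, 3 and 4 of RT-TMZ + Veh, replicate 3 of CT2A + RT-TMZ + Veh and replicates 2 and 3 of CT2A + RT-TMZ + UCI-191 EV. Under UCI-191 EV, the tumor-bearing group was above the tumor-free group by 0.37 (SE 0.07, adjusted p = 0.0279), with no overlap. Pik3r1 was the 1 of 8 members that passed in CT2A + RT-TMZ + UCI-191 EV against RT-TMZ + UCI-191 EV, beside 12.8% of all genes and 5.15% called higher, and in 4 of 8 members (with Pik3ca, Pik3cb and Akt2) the groups did not overlap, beside 39.6%. That call was lost without any 1 RT-TMZ + UCI-191 EV sample or replicate 2 of CT2A + RT-TMZ + UCI-191 EV (adjusted p of 0.0599 to 0.0939). Without the scaling factor its fold change was 0.13 (0.323), where the median of all genes was −0.303. Against Control + Veh, CT2A + RT-TMZ + UCI-191 EV was higher in Pik3r1 by 0.35 (SE 0.06, adjusted p = 0.0133) and lower in Pik3cb by a log2 fold change of −0.21 (SE 0.04, adjusted p = 0.0187), 2 of 8 members beside 13.1% of all genes (7.40% called higher, 5.68% lower). The groups did not overlap in 4 of 8 (with Pik3cg and Akt2), beside 29.7%. The Pik3r1 call was lost without replicate 2 of the EV group (0.0573), and the Pik3cb call without that sample or Control + Veh replicate 1 or 3 (0.0518 to 0.0669). Without the scaling factor the Pik3r1 fold change was 0.12 (0.337), where the median of all genes was −0.209.

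In tumor-free mice with Shef6 EV, Pik3r1 split within the group. Replicates 1 and 2 had 11.22 and 11.15, above every RT-TMZ + Veh and Control + Veh sample, and replicate 3 had 10.54, below every one of them. In RT-TMZ + Shef6 EV against RT-TMZ + Veh, 0 of 8 members passed in limma (0 before adjustment at p under 0.05, 0 by the methods' t-test), beside 0% of all genes. In that comparison 1 of 8 members did not overlap (Akt2, beside 10.3% of all genes), and the Pik3r1 log2 fold change was 0.20 (SE 0.16, adjusted p = 0.626). Without replicate 3 it was 0.41 (SE 0.08, adjusted p = 0.0251), and 9.64% of all genes were then called. That value rests on replicates 1 and 2, the samples high in Mef2c. Without replicate 1 the log2 fold change was 0.07 (0.931) and without replicate 2 it was 0.11 (0.911). Against Control + Veh, 0 of 8 passed (2 before adjustment at p under 0.05, 0 by the methods' t-test) beside 5.42% of all genes, and 1 of 8 did not overlap (Pik3cb, beside 18.6%). Pik3r1 had 0.21 there (adjusted p = 0.477) with all samples. Without replicate 3 it had 0.43 (0.00609), and 15.2% of all genes were then called. Its comparison with RT-TMZ + UCI-191 EV and with CT2A + RT-TMZ + Shef6 EV turned on the same sample, and without replicate 1 or 2 the adjusted p of Pik3r1 in these comparisons was 0.714 to 0.866. RT-TMZ + UCI-191 EV against RT-TMZ + Shef6 EV gave 0 of 8 members (1 before adjustment at p under 0.05, 0 by the methods' t-test) beside 0% of all genes, with 2 of 8 not overlapping (Akt1 and Akt2, beside 14.9%). Pik3r1 was at −0.23 (adjusted p = 0.584) with all samples. Without replicate 3 it was at −0.45 (0.0133), and 13.6% of all genes were then called. CT2A + RT-TMZ + Shef6 EV against RT-TMZ + Shef6 EV gave 0 of 8 (0 before adjustment at p under 0.05, 0 by the methods' t-test) beside 0% of all genes, with 0 of 8 not overlapping (18.2% of all genes). Pik3r1 was at −0.40 (0.387) with all samples. Without RT-TMZ + Shef6 EV replicate 3 it was at −0.62 (0.00392), and 12.0% of all genes were then called.

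Over all 7 groups the order of mean Pik3r1 levels, from highest, was CT2A + RT-TMZ + UCI-191 EV (11.11 ± 0.08), RT-TMZ + Shef6 EV (10.97 ± 0.37), RT-TMZ + Veh (10.77 ± 0.12), Control + Veh (10.76 ± 0.07), RT-TMZ + UCI-191 EV (10.74 ± 0.12), then CT2A + RT-TMZ + Shef6 EV (10.57 ± 0.11) and at the end CT2A + RT-TMZ + Veh (10.18 ± 0.31; SD, n = 3 or 4). Neighbours in this order overlapped in their sample values except the last pair.

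**Figure D2:**
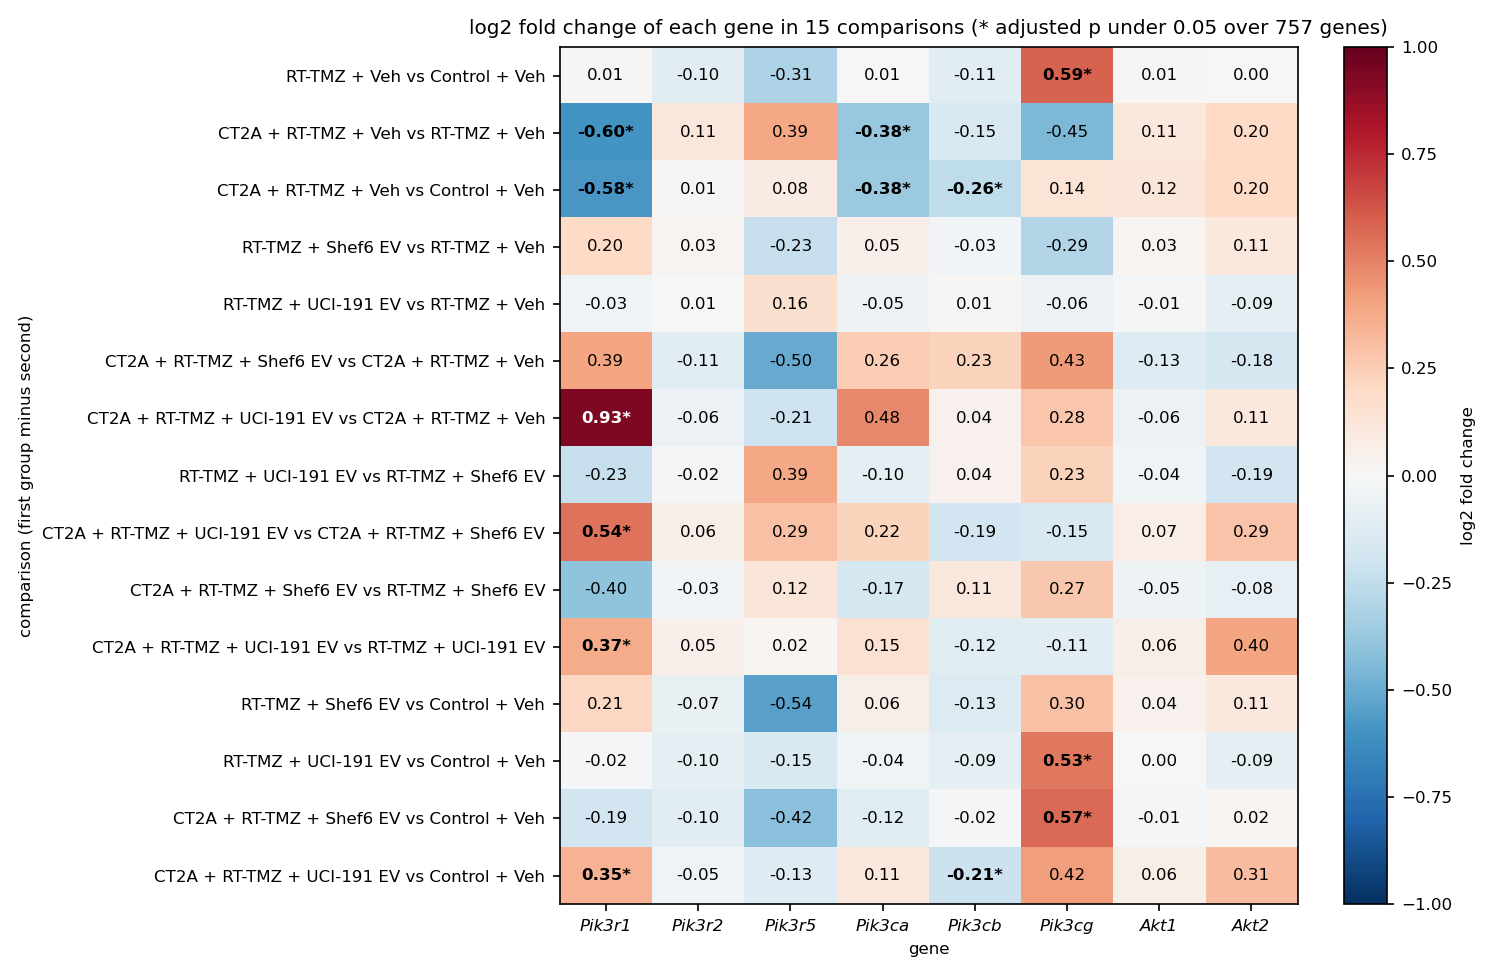
Log2 fold changes of the 8 genes (columns) in the 15 comparisons of 2 groups (rows, first group minus second), with blue for lower, red for higher and a star for an adjusted p under 0.05. Pik3r1 is at 0.93 in CT2A + RT-TMZ + UCI-191 EV against CT2A + RT-TMZ + Veh and at −0.60 in CT2A + RT-TMZ + Veh against RT-TMZ + Veh.

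Pik3r1 and Pik3ca, the partners of the most widely expressed class IA enzyme, had similar patterns over the samples. Their log2 values correlated at Pearson r = 0.88 over 24 samples, and at 0.61 after the group means were subtracted. The points share the groups, the sample scaling and the depth, so r is a description. The other pairs with Pik3r1 lay between −0.35 (Akt1) and 0.16 (Pik3cb). The genes most like Pik3r1 were Itgav, an integrin subunit (r = 0.92), Iqsec1, an exchange factor for ARF proteins (0.92), and Sod2, the mitochondrial superoxide dismutase (0.90). Those most like Pik3ca were Sod2 (0.94), Iqsec1 (0.88) and the transcription factor Crem (0.86). Mef2c ran with Pik3r1 in most but not all samples (r = 0.69, and 0.72 after the group means were subtracted). It was at 13.71, 13.91 and 14.00 in CT2A + RT-TMZ + UCI-191 EV and at 14.38 and 14.10 in replicates 1 and 2 of RT-TMZ + Shef6 EV, the samples highest in Pik3r1. Mef2c was lower in CT2A + RT-TMZ + Shef6 EV (12.04, 12.07 and 12.09) and in RT-TMZ + UCI-191 EV (11.90, 12.31 and 12.08). In CT2A + RT-TMZ + Veh it was at 11.67, 13.93, 11.91 and 11.85. Replicate 2 of that group thus shared the high Mef2c level. Its Pik3r1 level of 10.44 was the highest of its group and lay below every CT2A + RT-TMZ + UCI-191 EV sample. The part of Mef2c or of the neuron list in the Pik3r1 values was not tested.

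**Figure D3:**
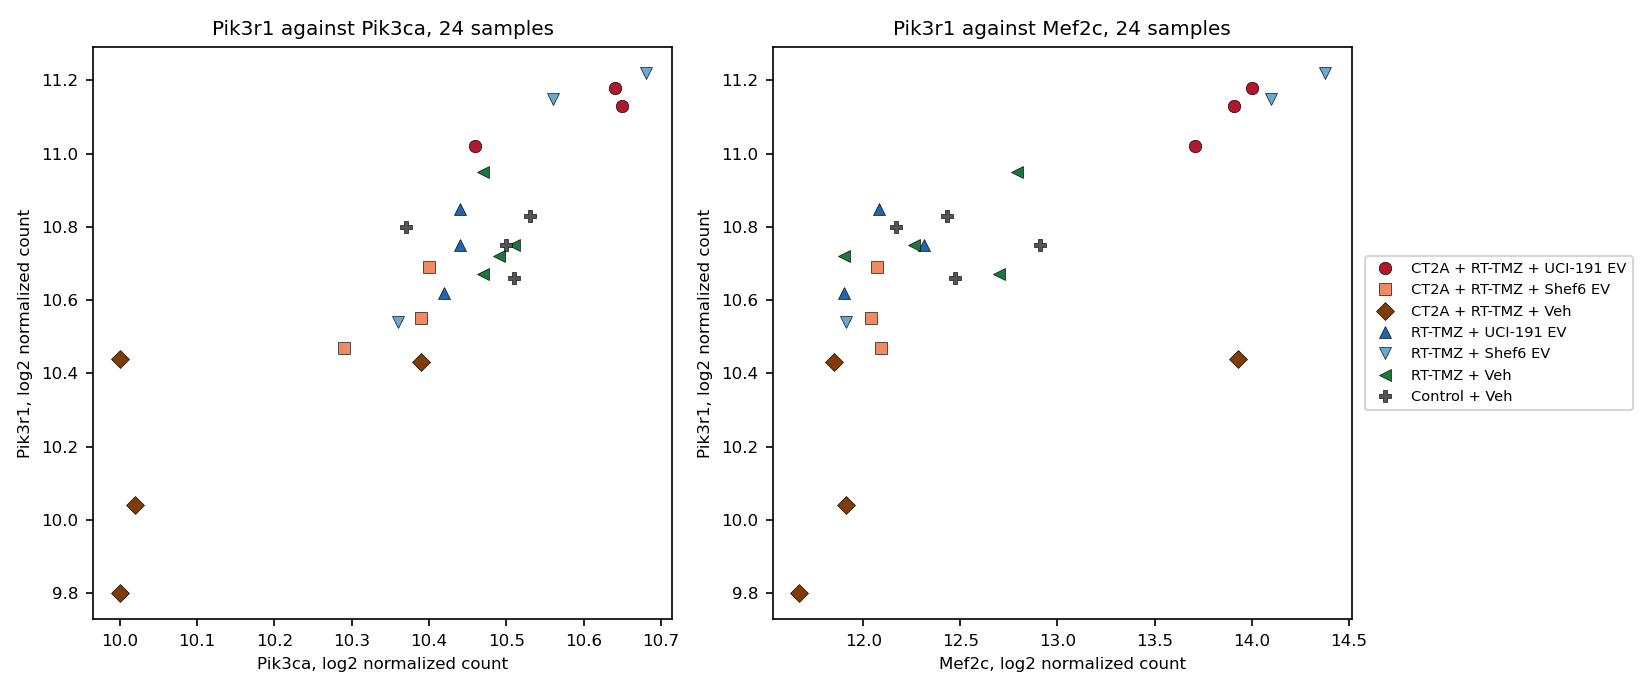
Log2 normalized counts of Pik3r1 (vertical axes) against those of Pik3ca (left) and of Mef2c (right, horizontal axes) in the 24 samples, with a point for each sample and a colour and symbol for each group. Pik3r1 runs with Pik3ca (r = 0.88) and in most samples with Mef2c (r = 0.69). CT2A + RT-TMZ + Veh replicate 2 is high in Mef2c (13.93) at a Pik3r1 level of 10.44, the highest of its group.

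The sequences upstream of Pik3r1 and Pik3ca are shown because these genes varied together, and that of Pik3cg because it did not vary with them (r = 0.07 with Pik3r1 and 0.17 with Pik3ca). Each is the 250 bases before the transcription start from RefSeq (mouse build GRCm38.p6), in the direction of the gene, and 8 of 8 members had an entry. Where the RefSeq promoter table listed 2 starts, as for Pik3r1 and Pik3cg, the more upstream of the listed starts was used, and the annotated Pik3cg gene (chromosome 12, 32173397 to 32208677) extends slightly upstream of it. Capitals mark matches to a GC box (GGGCGG, or CCGCCC on the other strand) or an AP-1 site (TGAGTCA, or TGACTCA on the other strand). Also searched on both strands were a cyclic AMP response element (TGACGTCA), an E-box (CACGTG), a FoxO site (GTAAACA) and a PU.1 site (GAGGAAGT).
Pik3r1 (chr13:101768218-101768467, minus strand): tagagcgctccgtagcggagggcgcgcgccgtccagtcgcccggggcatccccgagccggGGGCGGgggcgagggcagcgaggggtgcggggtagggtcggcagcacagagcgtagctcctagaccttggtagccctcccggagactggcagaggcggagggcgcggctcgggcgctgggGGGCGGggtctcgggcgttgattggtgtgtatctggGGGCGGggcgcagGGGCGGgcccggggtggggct
Pik3ca (chr3:32396815-32397064, plus strand): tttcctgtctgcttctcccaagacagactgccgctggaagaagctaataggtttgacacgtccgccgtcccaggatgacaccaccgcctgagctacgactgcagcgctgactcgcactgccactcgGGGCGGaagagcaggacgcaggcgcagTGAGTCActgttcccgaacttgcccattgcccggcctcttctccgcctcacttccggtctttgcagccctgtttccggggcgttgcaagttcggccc
Pik3cg (chr12:32208660-32208909, minus strand): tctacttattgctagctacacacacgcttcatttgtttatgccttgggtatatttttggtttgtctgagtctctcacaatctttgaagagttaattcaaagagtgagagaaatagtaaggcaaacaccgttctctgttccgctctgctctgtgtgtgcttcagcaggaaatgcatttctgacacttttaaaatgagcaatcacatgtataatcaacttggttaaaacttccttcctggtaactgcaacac
The Pik3r1 window held 4 GC boxes, first bases at −190, −70, −34 and −21 from the start, and had a GC content of 76.4%. The Pik3ca window held 1 GC box at −124 and 1 AP-1 site at −97, with a GC content of 61.6%. The Pik3cg window held 0 matches to the motifs searched and had a GC content of 38.8%. Over all 32851 RefSeq promoters of this length the median GC content was 52.4%, 32.7% held a GC box, 4.46% an AP-1 site, 1.55% the cyclic AMP response element, 6.02% the E-box, 3.17% the FoxO site and 2.44% the PU.1 site. Among the windows not shown, that of Pik3cb (r = 0.16 with Pik3r1) held 3 GC boxes at a GC content of 78.0%. Those of Pik3r2 (r = −0.32) and Pik3r5 (r = −0.16) held 1 and 4, at 68.4% and 61.6%. That of Akt1 (r = −0.35) held 0 GC boxes at 52.0%, and that of Akt2 (r = 0.07) held 1 at 48.8%. The matches describe the letters of these windows alone, and a link to the levels was not tested.

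Pik3cb did not follow Pik3ca, the other class IA catalytic gene (r = 0.36). Its samples varied least of the 4 genes that differed. Log2 values were 10.40, 10.39 and 10.36 in CT2A + RT-TMZ + UCI-191 EV, 10.63, 10.59 and 10.51 in CT2A + RT-TMZ + Shef6 EV, 10.53, 10.51 and 10.48 in RT-TMZ + UCI-191 EV and 10.36, 10.55 and 10.48 in RT-TMZ + Shef6 EV. In RT-TMZ + Veh they were 10.52, 10.50, 10.48 and 10.47, all below the 10.58 to 10.64 of Control + Veh (log2 fold change −0.11, SE 0.04, adjusted p = 0.0670). The CT2A + RT-TMZ + Shef6 EV samples were thus the nearest to Control + Veh, at a log2 fold change of −0.02 (adjusted p = 0.776), with overlap. The genes most like Pik3cb were Slc1a3, an astrocyte glutamate transporter (r = 0.81), Plcg2, a phospholipase of microglia (0.80), and Il1rap, an interleukin-1 receptor subunit (0.79). The astrocyte list (4 of 7 measured) had summed levels of 17591 to 22200 normalized counts in CT2A + RT-TMZ + Veh and of 25382 to 26285 in Control + Veh, and its part in the Pik3cb values was not tested.

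Within a sample, the difference between the log2 values of 2 genes is free of the sample's scaling, and its change between groups can be read although its size cannot. Pik3cb minus Pik3ca and Pik3r1 minus Pik3ca were chosen after the data were seen. Pik3cb minus Pik3ca averaged −0.20 ± 0.12 in CT2A + RT-TMZ + UCI-191 EV, against 0.24 ± 0.15 in CT2A + RT-TMZ + Veh (SD, n = 3 and 4). The groups did not overlap in it. CT2A + RT-TMZ + Shef6 EV was at 0.22 ± 0.03, RT-TMZ + UCI-191 EV at 0.07 ± 0.04, RT-TMZ + Shef6 EV at −0.07 ± 0.23, RT-TMZ + Veh at 0.01 ± 0.04 and Control + Veh at 0.12 ± 0.07. The p110β gene was thus measured relatively lower, against the p110α gene, in CT2A + RT-TMZ + UCI-191 EV than in CT2A + RT-TMZ + Shef6 EV or CT2A + RT-TMZ + Veh. Between the p85 genes, Pik3r1 minus Pik3r2 averaged −0.80 ± 0.14 in CT2A + RT-TMZ + UCI-191 EV, −1.28 ± 0.11 in CT2A + RT-TMZ + Shef6 EV and −1.79 ± 0.37 in CT2A + RT-TMZ + Veh, with no overlap between any pair of these groups. It was −1.12 ± 0.11 in RT-TMZ + UCI-191 EV, −0.91 ± 0.33 in RT-TMZ + Shef6 EV, −1.08 ± 0.18 in RT-TMZ + Veh and −1.20 ± 0.09 in Control + Veh. The lower and higher Pik3r1 levels in tumor-bearing mice were therefore also present relative to Pik3r2 in the same samples. Pik3r1 minus Pik3ca averaged 0.53 ± 0.04 in CT2A + RT-TMZ + UCI-191 EV and 0.08 ± 0.27 in CT2A + RT-TMZ + Veh.

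**Figure D4:**
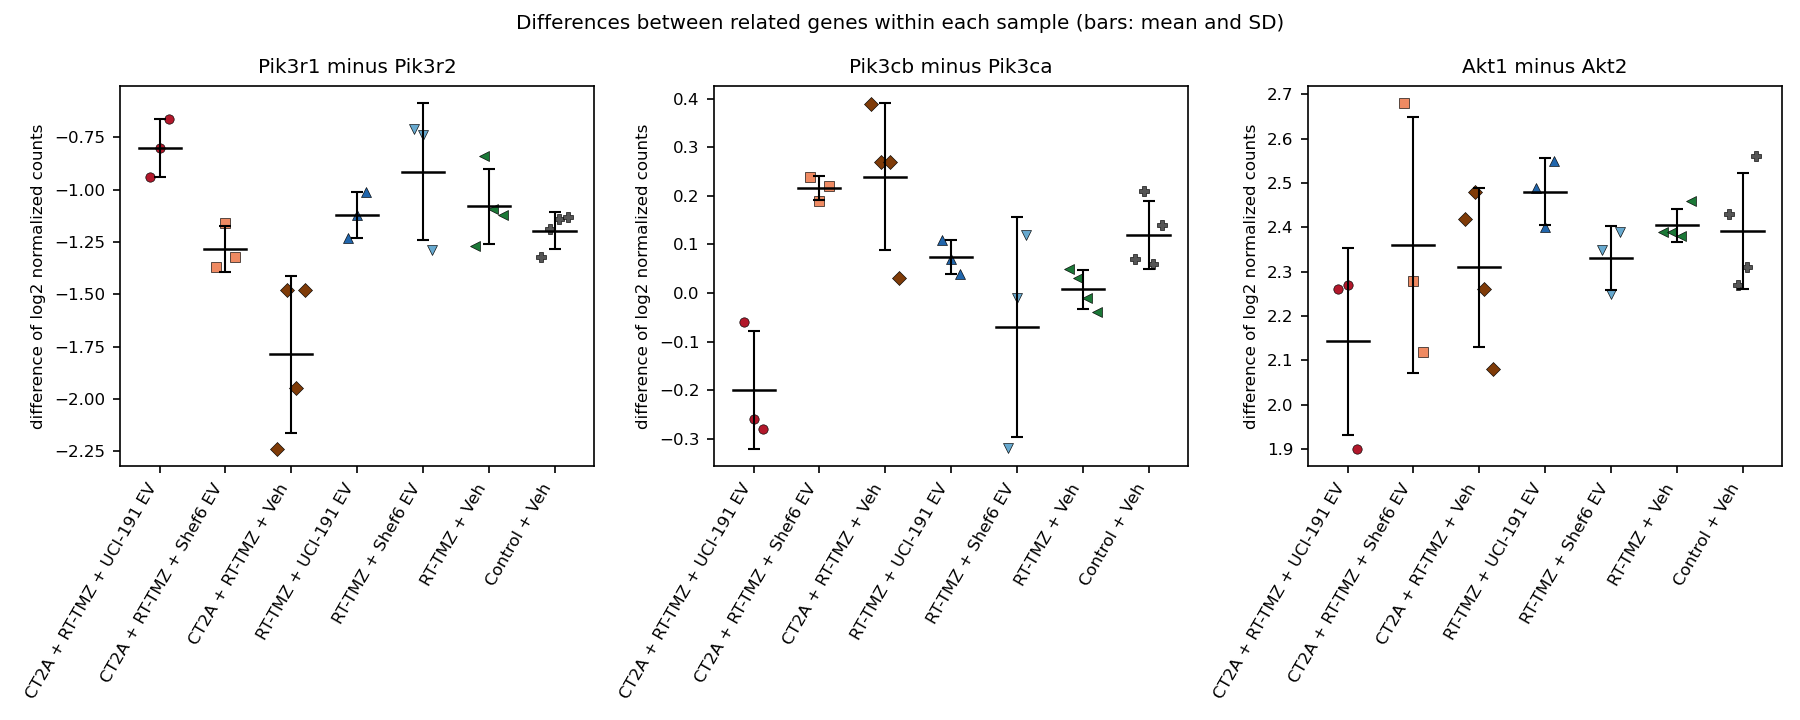
Differences between the log2 values of 2 genes in the same sample (vertical axes) by group, for Pik3r1 minus Pik3r2, Pik3cb minus Pik3ca and Akt1 minus Akt2, with points for samples and bars for the group mean and SD. Pik3r1 minus Pik3r2 separates CT2A + RT-TMZ + UCI-191 EV (mean −0.80) from CT2A + RT-TMZ + Shef6 EV (mean −1.28) and from CT2A + RT-TMZ + Veh (mean −1.79).

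Pik3r2 and Akt1 varied little, and Akt2 more. Pik3r2 ranged from 11.79 to 12.04 over all samples, with group means of 11.85 to 11.96. Akt1, the most general Akt kinase, ranged from 11.56 to 11.81 with group means of 11.65 to 11.78. In none of the 17 comparisons did either gene pass with all samples, and Pik3r2 passed in RT-TMZ + UCI-191 EV against Control + Veh without Control + Veh replicate 4 (log2 fold change −0.12, adjusted p = 0.0283). Akt2 ranged from 9.05 to 9.85, and its group means spanned 0.40 with a within-group SD of 0.15. CT2A + RT-TMZ + Veh had the highest mean of Akt1, at 11.81, 11.77, 11.79 and 11.74 against 11.72, 11.64, 11.65 and 11.63 in Control + Veh, a log2 fold change of 0.12 (SE 0.05, adjusted p = 0.148) with no overlap. Akt2, the isoform best known from insulin signaling, had 9.41, 9.47 and 9.85 in CT2A + RT-TMZ + UCI-191 EV, against 9.19, 9.26 and 9.09 in RT-TMZ + UCI-191 EV. Its log2 fold change there was 0.40 (SE 0.12, adjusted p = 0.0786), with no overlap. Akt2 also lay above RT-TMZ + Veh (9.25 to 9.28) in all 4 samples of CT2A + RT-TMZ + Veh (9.39, 9.29, 9.53 and 9.66), a log2 fold change of 0.20 (adjusted p = 0.184). Both fold changes were negative without the scaling factor, at −0.50 for Akt1 against Control + Veh and −0.36 for Akt2 against RT-TMZ + Veh. The median of all genes in that setting was −0.673 and −0.702 in these comparisons, so both genes still lay above it. The genes most like them were Nefl (r = 0.68) for Pik3r2, the vesicular glutamate transporter gene Slc17a7 (0.75) for Akt1 and the replication factor gene Mcm5 (0.72) for Akt2, over 24 samples.

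Of the class IB genes, Pik3cg was higher after RT-TMZ. It had 6.40, 6.65, 6.91 and 6.69 in RT-TMZ + Veh, against 6.10, 6.23, 6.14 and 5.83 in Control + Veh. All RT-TMZ + Veh samples lay above all controls, at 102 ± 14.7 normalized counts in RT-TMZ + Veh and 67.8 ± 7.74 in Control + Veh (SD, n = 4 each). The log2 fold change was 0.59 (SE 0.14, adjusted p = 0.0210), and Pik3cg was the 1 of 8 members that passed, beside 17.8% of all genes in either direction and 12.2% called higher. The groups did not overlap in 2 of 8 members (with Pik3cb), beside 21.8%. The call was lost without Control + Veh replicate 1 (adjusted p = 0.0554) or RT-TMZ + Veh replicate 3 or 4 (0.0569 and 0.0603), and quantile normalization lowered the fold change to 0.31 (0.0813).

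In 2 further groups Pik3cg was higher than in Control + Veh past the threshold. RT-TMZ + UCI-191 EV had 6.68, 6.55 and 6.57, a log2 fold change of 0.53 against Control + Veh (SE 0.12, adjusted p = 0.0183), the 1 of 8 members that passed beside 21.0% of all genes (15.7% higher), with 3 of 8 not overlapping (with Pik3cb and Pik3r2) beside 32.1%. CT2A + RT-TMZ + Shef6 EV had 6.78, 6.63 and 6.52, a log2 fold change of 0.57 (SE 0.14, adjusted p = 0.0275), the 1 of 8 that passed beside 18.0% (11.4% higher), and the 1 of 8 not overlapping beside 30.6%. CT2A + RT-TMZ + UCI-191 EV, at 6.64, 6.35 and 6.48, had 0.42 (adjusted p = 0.0813), and RT-TMZ + Shef6 EV, at 6.30, 6.21 and 6.60, had 0.30 (0.308). In CT2A + RT-TMZ + Veh, the values of 6.42, 5.97, 6.12 and 6.35 overlapped the controls, at 0.14 (0.540). These comparisons share the Control + Veh samples. The call for RT-TMZ + UCI-191 EV was lost without any 1 of its samples (adjusted p of 0.0524 to 0.0658), and that for CT2A + RT-TMZ + Shef6 EV without its replicate 1 or 2 or Control + Veh replicate 1 or 3 (0.0578 to 0.0726). Quantile normalization lowered the fold changes to 0.17 (0.370) and 0.26 (0.252). In RT-TMZ + UCI-191 EV against RT-TMZ + Veh, 0 of 8 members passed in limma (0 before adjustment at p under 0.05, 0 by the methods' t-test), beside 0% of all genes, and 1 of 8 did not overlap (Pik3ca, beside 6.61%). The difference of the Shef6 EV effect with and without CT2A was 0.72 for Pik3cg (SE 0.22, adjusted p = 0.0619), and 0 of 8 members passed there (2 at an unadjusted p under 0.05) beside 6.08% of all genes. It passed without RT-TMZ + Shef6 EV replicate 3 (0.84, adjusted p = 0.0338), RT-TMZ + Veh replicate 1 (0.81, 0.0426) or CT2A + RT-TMZ + Veh replicate 4 (0.77, 0.0364), and Pik3cb passed without the last of these (0.29, 0.0374). Without RT-TMZ + Shef6 EV replicate 3, 14.1% of all genes were called.

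The summed microglial markers overlapped between groups that differed in Pik3cg. Their level (9 of 12 listed genes measured) was 5788 to 6924 normalized counts in RT-TMZ + Veh and 5937 to 7144 in Control + Veh, with 2 genes higher and 3 lower past the threshold. Over 24 samples its r with Pik3cg was 0.13, and 0.76 after the group means were subtracted, and its part in the result was not tested. The genes most like Pik3cg were the microglial receptors Cd84 (r = 0.85) and Fcgr2b (0.81) and the complement gene C4a (0.84), over 24 samples. Ttr was uneven between samples, at 6.67, 14.40, 14.43 and 12.84 in RT-TMZ + Veh and at 9.19, 10.27, 6.72 and 7.02 in Control + Veh. The RT-TMZ + Veh sample without the high Ttr level, replicate 1, was the lowest of its group in Pik3cg at 6.40. Over 24 samples Pik3cg and Ttr had r = 0.67, and 0.44 after the group means were subtracted, and the part of choroid plexus tissue in the Pik3cg values was not tested.

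Pik3r5 was at the lower end of what the panel measured. It had 10 to 29 implied counts per sample, 17 of 24 samples lay under 20 normalized counts (log2 4.32), and 1 sample was at its own lowest value. Its group means lay between 3.82 in RT-TMZ + Shef6 EV and 4.44 in CT2A + RT-TMZ + Veh with a within-group SD of 0.35. It did not pass over the 7 groups (adjusted p = 0.316).

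Other genes of the pathway, from a list of receptors, adaptors, phosphatases and Akt targets of which 47 of 112 were measured, are set beside the members. In CT2A + RT-TMZ + Veh against RT-TMZ + Veh, 7 of 47 passed and all were lower, beside 10.6% of all genes and 8.72% called lower, with a list median of −0.217 beside −0.140 for all genes. Among them were the endothelial receptors Flt1 (log2 fold change −1.65, SE 0.31, adjusted p = 0.0325) and Tie1 (−1.64, SE 0.21, adjusted p = 0.0223), the oncostatin M receptor Osmr (−0.77, adjusted p = 0.0391) and the laminin-binding integrin subunit Itga6 (−0.69, adjusted p = 0.0325). In CT2A + RT-TMZ + Shef6 EV against CT2A + RT-TMZ + Veh, 5 of 47 passed and all were higher, beside 5.02% of all genes, with a list median of 0.188 beside 0.105. The same 4 genes were among them, at 1.89 for Flt1, 1.73 for Tie1, 0.91 for Osmr and 0.83 for Itga6 (adjusted p = 0.0282 each). In CT2A + RT-TMZ + UCI-191 EV against CT2A + RT-TMZ + Veh, 1 of 47 passed beside 1.45% of all genes, namely Tie1 (1.77, adjusted p = 0.0215). In RT-TMZ + Veh against Control + Veh, 12 of 47 passed, 6 higher and 6 lower, beside 17.8% of all genes, with a list median of 0.0025 beside 0.0475. The higher ones included Cdkn1a, the cell cycle inhibitor p21 (1.67, adjusted p = 5.0e-05), the kinase Btk (0.63, 0.0455) and the adaptor Tyrobp (0.48, 0.00158), and the lower ones Csf1r, the receptor of colony stimulating factor 1 (−0.56, 0.00116).

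Phosphatases that oppose PI3K were thinly covered, with 2 of 9 listed genes measured. In the remaining comparisons of the list, 12 of 47 passed in CT2A + RT-TMZ + Veh against Control + Veh (3 higher, 9 lower, beside 21.1% of all genes), 11 in RT-TMZ + UCI-191 EV (7 higher, 4 lower, beside 21.0%), 9 in CT2A + RT-TMZ + Shef6 EV (5 higher, 4 lower, beside 18.0%), 8 in CT2A + RT-TMZ + UCI-191 EV (4 higher, 4 lower, beside 13.1%) and 3 in RT-TMZ + Shef6 EV (1 higher, 2 lower, beside 5.42%), each against Control + Veh. Cdkn1a was among those higher in all of these, at 1.06 to 1.87. Between the EV groups with tumor 1 of 47 passed beside 6.61% of all genes, Plcg2, which was lower with UCI-191 EV (−0.63, SE 0.12, adjusted p = 0.0331). In CT2A + RT-TMZ + UCI-191 EV against RT-TMZ + UCI-191 EV 5 passed beside 12.8%, with Plcg2 (−0.42), Trem2 (−0.37), Csf1r (−0.36) and Tyrobp (−0.29) lower and Rb1cc1, an autophagy initiator, higher. In that comparison these microglial receptor and signaling genes were lower while Pik3r1 was higher. The microglial marker list as a whole (9 of 12 measured) was not lower. It had 6 genes with a positive and 3 with a negative fold change, and a median of 0.07 beside −0.0667 for all genes. Past the threshold, 2 of its genes were lower and 0 higher.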

How the data were processed

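RNA from 24 mouse brains was hybridized to the nCounter Mouse Neuroinflammation panel. The authors normalized the barcode counts to positive controls and then to 13 reference genes, and the deposited values are log2 normalized counts of 757 probes, which were used as deposited. The software was nSolver per the submitters' processing notes. Each sample's scaling factor was recovered from the spacing of its low values, of which 100% lay within 0.15 of a whole count. Comparisons of 2 groups were fitted with limma 3.58.1 (R 4.3.3), with the mean trend and the samples of the groups compared, and p-values were adjusted over 757 probes (Benjamini-Hochberg, threshold 0.05). The t-test named in the study's methods, run with unequal variances and called the methods' t-test, was an alternative, since it does not share the spread between genes. Differences of EV effects used the 4 groups concerned, and the F test all 7. The methods' t-test was also run in R. The rest used Python 3.11.15 with pandas 2.3.3 and numpy 2.4.6 (tables), scipy 1.17.1 (rank correlations, not given here) and matplotlib 3.10.9 (plots). The fit and the recovery of the factors were tested on simulated data.

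The members and the gene lists were chosen with earlier results of these data known. All members are named, with the 3 genes most alike and, per comparison, up to 4 pathway genes of largest change past the threshold. Mef2c, Ttr and the marker lists are given as tissue checks. The class IB genes Pik3cg and Pik3r5 were also set against Pik3ca and Pik3cb within each sample, as a difference of mean log2 values. Its group means lay between −5.41 in RT-TMZ + Shef6 EV and −4.90 in CT2A + RT-TMZ + Veh, with −5.32 in Control + Veh. It includes the low counts of Pik3r5. Alternatives were median centring, quantile normalization, scaling to the sample total, removal of the scaling factor, a pseudocount of 20, probes above 20 normalized counts only, a joint fit of all 7 groups, the methods' t-test, no mean trend, the replicate number as a block, and leaving out each sample. Between groups, samples with different replicate numbers had deviations from their group means that correlated at −0.616 to 0.538 (180 pairs, 56 above 0.1). Samples with the same replicate number had deviations that correlated at −0.543 to 0.583 (66 pairs, 20 above 0.1). Every pair was above 0.1 in RT-TMZ + Shef6 EV against RT-TMZ + Veh (0.319 to 0.583) and in CT2A + RT-TMZ + Shef6 EV against RT-TMZ + Shef6 EV (0.201 to 0.457), where the block left 0 members called, and also between CT2A + RT-TMZ + Shef6 EV and RT-TMZ + Veh (0.148 to 0.562), which were not set against each other alone. Each sample came from its own mouse.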

Additional observations from a re-analysis of the deposited data

Results flagged for a closer look

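In 24 sets of 4 samples (8 genes in 3 groups), a single sample lay apart from the other 3 of its group, relative to the range of the set, in 3 sets. Chance alone marks about 1 in 20 such sets. Pik3ca in CT2A + RT-TMZ + Veh was at 10.39 on the log2 scale in replicate 4 (1342 normalized counts), against 1024, 1024 and 1038 normalized counts in the others. Pik3r5 in CT2A + RT-TMZ + Veh was at 5.03 in replicate 2, against 4.20 to 4.27 in the others, at a level near the lower end of the panel. Pik3cb in Control + Veh was at 10.64 in replicate 4, against 10.58, 10.58 and 10.59, a small gap in a group with a range of 0.06.

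The UCI-191 EV effect on Pik3r1 differed with and without CT2A by 0.96 on the log2 scale (SE 0.20, adjusted p = 0.0376, limma interaction term). The 3 CT2A + RT-TMZ + UCI-191 EV samples lay above all 4 CT2A + RT-TMZ + Veh samples, and the 3 RT-TMZ + UCI-191 EV samples overlapped RT-TMZ + Veh. The call was lost when any 1 of 9 of the 14 samples was left out.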

How the results depend on the processing

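Counts of members past the threshold (of 8, with the count as deposited in parentheses) moved with the processing, and the cause was not tested. Here and below, the share of all genes called under each setting is not given. A count is therefore no result about the members. Without the scaling factor the median log2 fold change of all genes was −0.702 in CT2A + RT-TMZ + Veh against RT-TMZ + Veh and −0.673 against Control + Veh. Against CT2A + RT-TMZ + Veh it was 0.473 in CT2A + RT-TMZ + UCI-191 EV and 0.464 in CT2A + RT-TMZ + Shef6 EV. In CT2A + RT-TMZ + Veh against RT-TMZ + Veh (2) the count was 0 with median centring, the methods' t-test, no mean trend or the replicate block, 1 with quantile normalization, 4 with all 7 groups in 1 fit and 7 without the scaling factor. In CT2A + RT-TMZ + Veh against Control + Veh (3) it was 0 with the methods' t-test or the replicate block, 1 with median centring and 7 without the scaling factor. In CT2A + RT-TMZ + UCI-191 EV against CT2A + RT-TMZ + Veh (1) it was 0 with median centring, the methods' t-test, no mean trend or the replicate block, 2 with all groups in 1 fit and 7 without the scaling factor. In CT2A + RT-TMZ + Shef6 EV against CT2A + RT-TMZ + Veh (0) it was 4 without the scaling factor and 5 with all groups in 1 fit. In CT2A + RT-TMZ + UCI-191 EV against CT2A + RT-TMZ + Shef6 EV (1) it was 2 with median centring, quantile normalization or total scaling and 0 with the methods' t-test or the replicate block, and against RT-TMZ + UCI-191 EV (1) it was 4 with median centring, 2 with quantile normalization and 0 with a joint fit of all groups, the methods' t-test or no mean trend.

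Against Control + Veh, RT-TMZ + Veh (1) had 2 with total scaling and 0 with quantile normalization, without the scaling factor or with the replicate block. RT-TMZ + UCI-191 EV (1) had 3 with median centring and 0 with quantile normalization or the block. CT2A + RT-TMZ + Shef6 EV (1) had 2 with median centring, 6 without the scaling factor and 0 with quantile normalization, the methods' t-test or the block. CT2A + RT-TMZ + UCI-191 EV (2) had 1 with median centring, quantile normalization, a joint fit of all groups, the methods' t-test or the block. The difference of the Shef6 EV effect (0) had 1 with quantile normalization, 2 with total scaling or all groups in 1 fit and 3 without the scaling factor. The difference of the UCI-191 EV effect (1) had 0 with median centring or no mean trend, 2 with quantile normalization, low probes removed, all groups in 1 fit or the block, and 5 without the scaling factor. Over the 7 groups (4) the count was 7 without the scaling factor.

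Leaving out 1 sample at a time gave 0 to 3 members in CT2A + RT-TMZ + Veh against Control + Veh. It gave 0 to 2 in CT2A + RT-TMZ + Veh against RT-TMZ + Veh, CT2A + RT-TMZ + UCI-191 EV against CT2A + RT-TMZ + Veh and against Control + Veh, RT-TMZ + UCI-191 EV against Control + Veh and both differences of EV effects. It gave 0 in RT-TMZ + UCI-191 EV against RT-TMZ + Veh, 0 to 1 in the other comparisons of 2 groups and 4 to 5 over the 7 groups. Leaving out 1 sample moved 1056 of 1056 member fold changes by less than 1 SD. In comparisons of 2 groups of 3 or 4 samples this bound always holds, so it does not measure stability there. Of 1071 member fold changes under the other settings, 842 moved by less than 1 SD between replicates and 229 by more. In the comparisons whose count moved with the block, not every same-numbered pair had deviations correlated above 0.1. With 3 or 4 pairs in a comparison, this check cannot tell what same-numbered samples share, which was not tested. Pik3r5 had the fewest counts of the members, at 10 to 29 implied counts.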
